A study of Mus musculus with 8 samples.

Results

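Interferon-γ (IFN-γ), its receptor and the first steps of its signalling were followed through 8 genes in MOPC tumours: the ligand Ifng, the receptor chains Ifngr1 and Ifngr2, the kinases Jak1 and Jak2, the transcription factors Irf1 and Irf8, and the inhibitor Socs1. Members were chosen by gene symbol, and each was read from its probe set with the highest mean signal. All 8 were present among 18194 genes, on 13 of the 45101 probe sets of an array. MOPC is a murine oropharyngeal carcinoma line, which was injected subcutaneously into C57BL/6 wild type (WT) mice and into mice lacking Tlr3, Tlr7 and Tlr9 (Tlr3/7/9−/−, here KO). Whole tumours were taken at day 4 and day 6, with 2 tumours of each genotype at each day, 8 arrays in 4 groups. The genotype is that of the host, and all groups carried the same injected tumour cells with their own Tlr genes. The labels give neither the age nor the sex of the hosts. They do not say whether replicates were separate animals, which the paper's text states for day 6 alone. The replicates are called tumours here, but at day 4 the spread behind the p-values may not be that between animals.

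IFN-γ is a cytokine made mainly by natural killer (NK) cells and T cells. It binds a receptor of IFNGR1 and IFNGR2 chains, the associated kinases JAK1 and JAK2 are activated, and the signal reaches gamma-activated sites (GAS) in the promoters of early target genes such as IRF1. IRF1 and IRF8 then act on interferon-stimulated response elements (ISRE) of further targets, while SOCS1 binds the JAK kinases and dampens the signal.

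In WT tumours Irf1 rose from day 4 to day 6, 2.36-fold by the group means. In KO tumours Irf1 and Socs1 rose over the same days to 4.26 and 4.98 times the day 4 mean, and Ifngr1 fell to 0.659 times. Ifng also rose in KO tumours, from signals too low at day 4 to give a firm fold. At day 6 the KO tumours had the highest group mean of Ifng, Jak2, Irf1 and Socs1 and the lowest of Ifngr1, but none of the 8 genes passed the test between genotypes at either day.

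Promoter sequence is shown for Ifng, Irf1 and Socs1, which rose together in KO tumours, and for Irf8, a direct target of the pathway. Each run holds the 250 bases before the RefSeq gene start in the mouse assembly GRCm38.p6, written 5′ to 3′ on the strand of the gene. Capitals mark matches to a GAS-like motif, TTCNNNGAA, or an ISRE-like motif, a pair of GAAA runs with any 2 bases between them, both searched on both strands.
Ifng, chr10:118440796-118441045, plus strand: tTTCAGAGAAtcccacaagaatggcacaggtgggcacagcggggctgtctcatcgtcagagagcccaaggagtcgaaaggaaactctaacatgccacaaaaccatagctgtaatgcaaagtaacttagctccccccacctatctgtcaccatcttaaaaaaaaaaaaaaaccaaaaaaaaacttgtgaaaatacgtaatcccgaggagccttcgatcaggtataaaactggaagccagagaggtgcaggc
Irf1, chr11:53769764-53770013, plus strand: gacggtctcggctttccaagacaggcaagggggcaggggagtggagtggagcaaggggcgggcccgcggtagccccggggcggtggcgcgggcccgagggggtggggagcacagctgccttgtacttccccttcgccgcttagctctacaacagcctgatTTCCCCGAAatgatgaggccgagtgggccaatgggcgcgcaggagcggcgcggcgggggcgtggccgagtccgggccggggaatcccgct
Irf8, chr8:120736108-120736357, plus strand: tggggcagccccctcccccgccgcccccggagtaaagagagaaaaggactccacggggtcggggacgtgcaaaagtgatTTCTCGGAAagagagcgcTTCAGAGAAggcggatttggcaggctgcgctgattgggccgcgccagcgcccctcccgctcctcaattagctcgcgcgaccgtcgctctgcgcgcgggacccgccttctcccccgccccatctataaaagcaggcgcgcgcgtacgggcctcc
Socs1, chr16:10785537-10785786, minus strand: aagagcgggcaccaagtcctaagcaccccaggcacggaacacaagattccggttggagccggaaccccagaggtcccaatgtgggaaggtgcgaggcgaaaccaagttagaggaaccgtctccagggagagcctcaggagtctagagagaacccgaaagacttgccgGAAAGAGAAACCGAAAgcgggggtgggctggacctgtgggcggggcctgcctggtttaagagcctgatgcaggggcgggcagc

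The Irf1 window held 1 GAS-like match, TTCCCCGAA, at positions -90 to -82 from the gene start. The Irf8 window held 2, TTCTCGGAA at -171 to -163 and TTCAGAGAA at -153 to -145. The match in the Ifng window, TTCAGAGAA, lay at its far end, at -249 to -241. Socs1 had no GAS-like match and 2 overlapping ISRE-like matches, GAAAGAGAAA at -83 to -74 and GAAACCGAAA at -77 to -68. The windows of Ifngr1, Ifngr2, Jak1 and Jak2 held neither motif. Of 32851 windows of the same length in the table, 7.02% held the GAS-like and 2.98% the ISRE-like letters, so these are matches of letters and not shown to be binding sites. For Irf1 and Irf8 the table holds 2 windows each, and the one at the RefSeq gene start was used.

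The tumours differed in ways that touch these comparisons. Skeletal muscle transcripts were high in WT day 4 replicate 2, KO day 4 replicate 2 and KO day 6 replicate 2, where the summed signal of 8 muscle genes was 125089, 21516 and 50650.8, against 945.1 to 1116.1 in the other 5 tumours. KO day 6 replicate 2 also held skin transcripts, with Krt10, a keratin of the upper epidermis, at 9762.5 against 467.9 to 599.4 elsewhere. Xist, which is transcribed from the inactive X chromosome, was 44.6 to 142.1 at day 4 and 5579.1 to 7121 at day 6, and the Y-linked gene Eif2s3y was 798.1 to 1176.7 at day 4 and 10.2 to 33 at day 6. Day and the sex of the host therefore cannot be told apart in any comparison of days. Tlr7 was 382.9 to 673.4 in WT and 10.8 to 80.1 in KO tumours, and Tlr3 543.9 to 811.1 and 224 to 427.2, while Tlr9 was 20.8 to 137.6 and 84.2 to 128.5. Whether the Tlr9 probe set lies in the deleted stretch is not known, so it is no check of the genotype. The keratin Krt8, which marks the carcinoma cells, was 21917.4 to 35100.3 in all 8 tumours. The number of arrays limits the precision.

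Signals are on the linear scale the authors deposited. Differences are of log2(signal + 16) and come from limma with 1 fit to the 4 groups, and a gene was called at an adjusted p under 0.05 over the 12976 genes past a filter, which asked for a mean log2 value at or above the 40th percentile over probe sets, that of a signal of 78.6. Of the 8 genes, 7 passed it and Ifng did not, so Ifng was fitted and adjusted with all 18194 genes. In whole tumours, fewer cells of a type and less RNA per cell cannot be told apart.

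**Figure D1:**
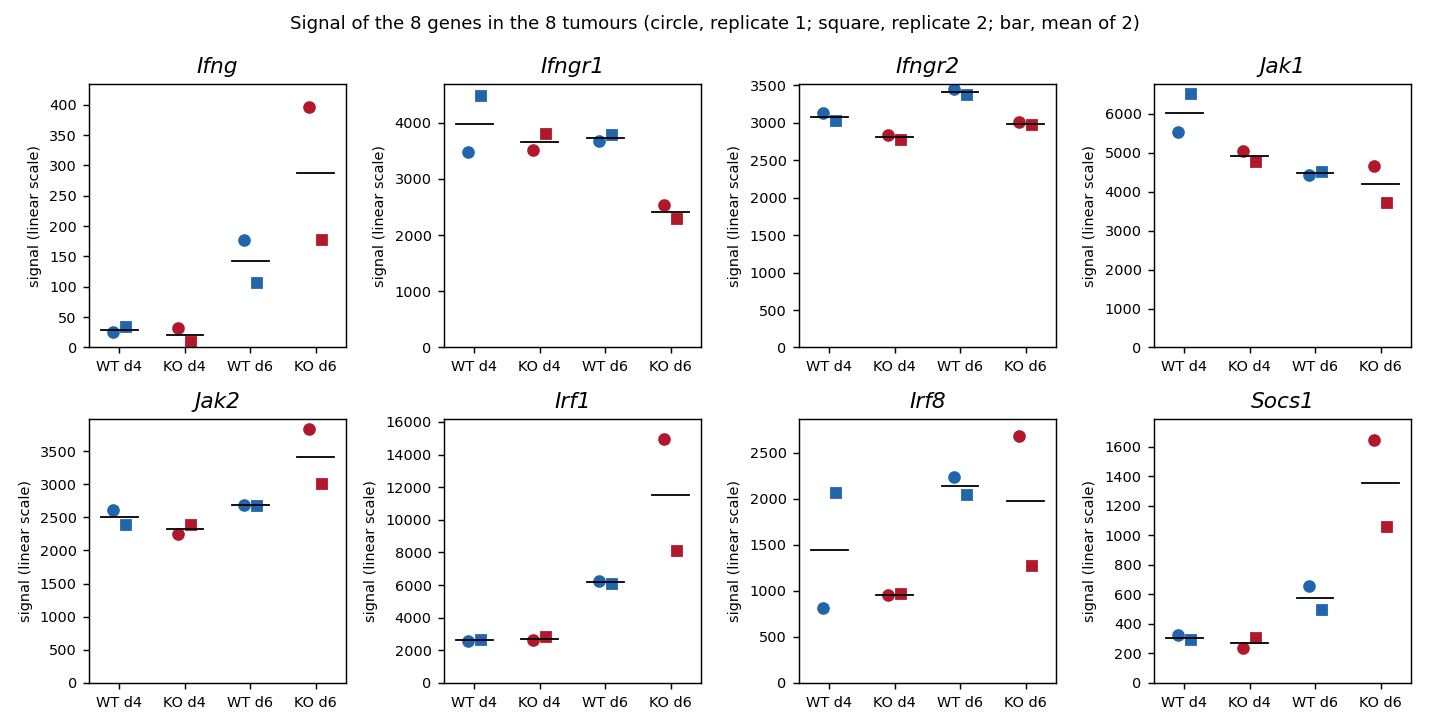
Signal (linear scale, y axis) of the 8 genes in the 4 groups of 2 tumours (x axis, d4 and d6 for day 4 and day 6), with a circle for replicate 1, a square for replicate 2 and a bar at the mean. Irf1 lay between 2582.3 and 2788.3 in the 4 tumours of day 4 and between 6068 and 14942.2 in the 4 tumours of day 6, and Ifngr1 was lowest in the 2 KO tumours of day 6.

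The ligand gene Ifng had signals of 25.4 and 32.9 in WT and 31.5 and 9.5 in KO tumours at day 4, and of 177.5 and 106.5 in WT and 396.1 and 177.8 in KO tumours at day 6. All 4 tumours of day 4 lay below the level of the filter and below all 4 of day 6. At day 6 the lower KO tumour and the higher WT tumour were nearly equal. Ifng rose with time in KO tumours, with a log2 difference of 3.02 (standard error 0.51, adjusted p = 0.0319 from limma), where 2.87% of all genes fitted were called, 3.05% in WT tumours. In WT tumours the difference was 1.77 (standard error 0.51, adjusted p = 0.0993 from limma), and 2 tumours against 2 cannot go below an exact permutation p of 0.333 for a single gene. The difference between KO and WT was 0.88 at day 6 (95% confidence interval -0.29 to 2.05, adjusted p = 0.858 from limma) and -0.37 at day 4. At day 6 it was 0.33 when KO replicate 1 was left out and 1.42 when KO replicate 2 was, and 0.55 without WT replicate 2. The size of the rise in KO tumours rests on the low signals of day 4, and it was 3.85 with a pseudocount of 1 and 1.99 with a pseudocount of 64. It no longer passed when any one of the 4 KO tumours was left out, with 2.48 and 3.57 for replicates 1 and 2 of day 6 (adjusted p = 0.110 and 0.0547 from limma) and 3.47 and 2.57 for those of day 4 (adjusted p = 0.154 and 0.265), or without the 3 tumours of high muscle signal (3.12, adjusted p = 0.244).

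Ifngr1, the chain that binds the ligand, had signals of 3472.2 and 4474.7 in WT and 3513.8 and 3797.4 in KO tumours at day 4. At day 6 the WT tumours had 3677.6 and 3781.4 and the KO tumours 2529.3 and 2288.5. The 2 KO tumours of day 6 were the lowest of the 8, and the other 6 tumours overlapped across groups. Ifngr1 fell with time in KO tumours, with a log2 difference of -0.60 (standard error 0.14, adjusted p = 0.0478 from limma), and in WT tumours the difference was -0.08 (adjusted p = 0.777). Between the genotypes at day 6 it was -0.63 (95% confidence interval -0.96 to -0.30, adjusted p = 0.704 from limma), which did not pass. The fall in KO tumours was close to the threshold: it did not pass without any one of the 4 KO tumours or without either WT tumour of day 6 (-0.67 to -0.53, adjusted p = 0.0619 to 0.277 from limma), nor without the 3 tumours of high muscle signal (-0.47, adjusted p = 0.401).

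Ifngr2, the chain that brings the second kinase into the complex, was the steadiest gene of the 8. Its signals were 3130.3 and 3023.3 in WT and 2839.5 and 2776.6 in KO tumours at day 4, and 3456.9 and 3369.6 in WT and 3007.7 and 2971.1 in KO tumours at day 6. Its highest signal was 1.25 times its lowest, and its standard deviation within groups was 0.025 on the log2 scale, against a median of 0.19 over the tested genes. All KO tumours lay below all WT tumours, with log2 differences of -0.13 at day 4 and -0.19 at day 6 (adjusted p = 0.890 and 0.834 from limma) that did not pass. A dimmer second probe set of the gene had signals of 324.9 to 627.9 and ran the other way in time. Its differences from day 4 to day 6 were -0.21 in WT and -0.72 in KO tumours, where the brightest probe set had 0.15 and 0.09. It also ran the other way between the genotypes at day 4, with 575 and 627.9 in KO against 539.8 and 519 in WT tumours. The difference between KO and WT on this probe set was 0.18 at day 4 and -0.33 at day 6.

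Both kinase genes were well above the filter in every tumour. Jak1, the kinase bound to the IFNGR1 chain, had 5534.2 and 6494.1 in WT and 5050.5 and 4757.6 in KO tumours at day 4, and 4427.7 and 4511 in WT and 4669.1 and 3717.8 in KO tumours at day 6. All tumours of day 6 were below those of day 4, with log2 differences of -0.42 in WT and -0.23 in KO tumours (adjusted p = 0.108 and 0.330 from limma), and the genotypes overlapped at day 6. The other 2 probe sets of Jak1 gave -0.30 and -0.08 in WT and -0.12 and -0.20 in KO tumours.

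Jak2, the kinase bound to the IFNGR2 chain, had 2616.9 and 2387.5 in WT and 2252.8 and 2382.4 in KO tumours at day 4, and 2692.7 and 2669.8 in WT and 3826.2 and 2998.3 in KO tumours at day 6. On this brightest probe set the KO tumours of day 6 were the highest of the 8. The log2 difference between the days in KO tumours was 0.54 (standard error 0.14, adjusted p = 0.0585 from limma), just outside the threshold, and it was 0.10 in WT tumours. Between the genotypes at day 6 it was 0.34, which moved to 0.16 when KO replicate 1 was left out and to 0.51 when KO replicate 2 was. Without WT day 4 replicate 1 or replicate 2 the difference of 0.54 between the days passed (adjusted p = 0.0497 and 0.0487 from limma). The second probe set of Jak2 had -0.02 in KO and -0.21 in WT tumours, so the 2 probe sets of the gene disagreed on the change with time. At day 6 this second probe set had 1475.8 and 1407.7 in WT and 2144.3 and 1404.9 in KO tumours. There the genotypes overlapped, and KO replicate 2 was the lowest of the 8 tumours.

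Irf1, an early target of the pathway and itself a transcription factor, was even at day 4, with signals of 2582.3 and 2636.6 in WT and 2618.4 and 2788.3 in KO tumours. At day 6 the WT tumours had 6261.7 and 6068 and the KO tumours 14942.2 and 8087.2. No tumour of day 6 overlapped with day 4, and the KO tumours of day 6 lay above the WT tumours but far from each other. Irf1 rose with time in both genotypes, by a log2 difference of 1.24 in WT (standard error 0.24, adjusted p = 0.0280 from limma) and of 2.02 in KO tumours (standard error 0.24, adjusted p = 0.0110 from limma). The difference between KO and WT was 0.05 at day 4 and 0.83 at day 6 (95% confidence interval 0.29 to 1.38, adjusted p = 0.742 from limma). That of day 6 was 0.39 when KO replicate 1 was left out and 1.28 when KO replicate 2 was. The rise in WT tumours kept its size but did not pass without any one of the WT or KO day 4 tumours or the WT day 6 tumours (1.21 to 1.26, adjusted p = 0.0509 to 0.187 from limma), and the rise in KO tumours did not pass without KO day 4 replicate 1 or 2 (1.97 and 2.06, adjusted p = 0.0969 and 0.126). Without the 3 tumours of high muscle signal the rise was 1.25 in WT and 2.51 in KO tumours, and only WT day 6 then kept both tumours.

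Irf8, a transcription factor of macrophages, dendritic cells and B cells, varied most within groups, with a standard deviation of 0.60 on the log2 scale. It had signals of 813 and 2062.3 in WT and 951 and 961.2 in KO tumours at day 4, and of 2233.4 and 2039.4 in WT and 2677.5 and 1265.9 in KO tumours at day 6. The tumour that stood apart from its replicate at day 4, WT replicate 2, also had the highest muscle signal and the highest summed signal of the dendritic cell, macrophage and B cell markers, 65841.6 against 39412.2 to 56173.3 in the others, and their part in its Irf8 level was not tested. The second probe set of Irf8 showed the same split at day 4, with 634.9 and 1279.9 in WT against 688.5 and 694 in KO tumours. No difference of Irf8 passed, with 0.71 in WT and 0.93 in KO tumours between the days (adjusted p = 0.344 and 0.213 from limma) and -0.21 between the genotypes at day 6. The WT value was 0.049 when WT replicate 1 of day 4 was left out and 1.38 when WT replicate 2 was, and the KO value was 0.40 when KO replicate 1 of day 6 was left out and 1.47 when KO replicate 2 was. Without the 3 tumours of high muscle signal only WT day 6 kept both tumours. The difference with time in WT tumours was then 1.38, and that between the genotypes at day 6 was 0.33, of the opposite sign.

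Socs1, the feedback inhibitor, had signals of 325.6 and 288.6 in WT and 235.5 and 307.2 in KO tumours at day 4, and of 656.2 and 495.6 in WT and 1645.9 and 1056.6 in KO tumours at day 6. The tumours of day 4 overlapped between the genotypes, and at day 6 both KO tumours lay above both WT tumours. Socs1 rose with time in KO tumours, with a log2 difference of 2.23 (standard error 0.26, adjusted p = 0.0107 from limma). It had 0.86 in WT tumours (standard error 0.26, adjusted p = 0.0837 from limma). Between the genotypes at day 6 the difference was 1.19 (95% confidence interval 0.59 to 1.78, adjusted p = 0.704 from limma). The rise in KO tumours was 2.72 without the 3 tumours of high muscle signal, where only WT day 6 kept both tumours. It did not pass without KO day 4 replicate 1 or 2 (2.05 and 2.41).

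**Figure D2:**
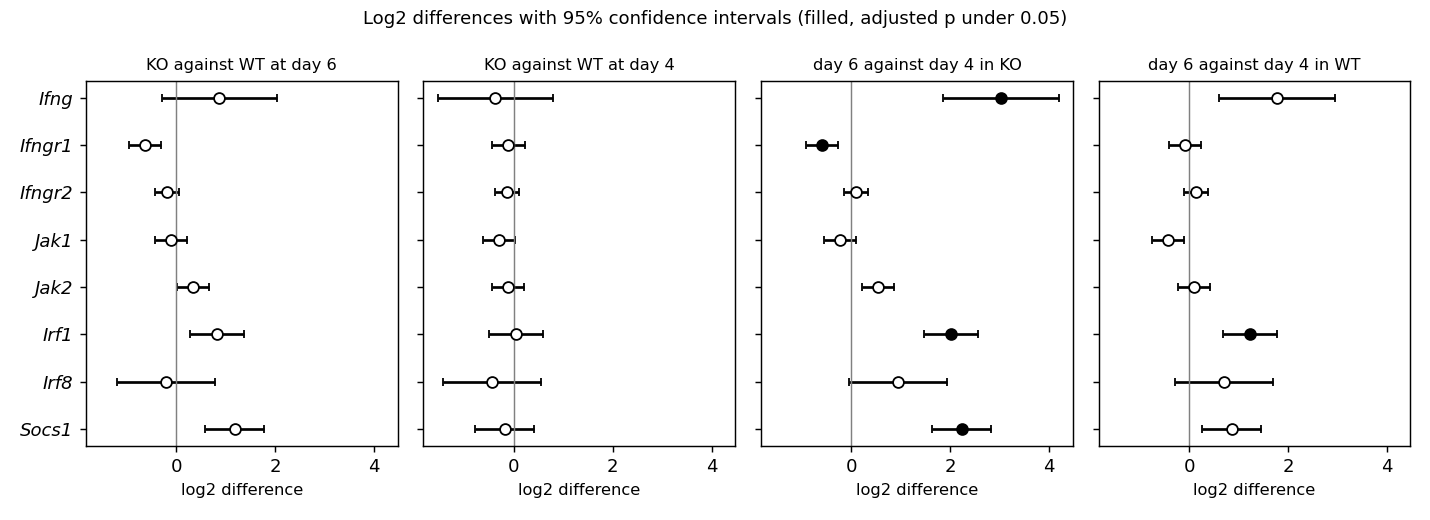
Log2 difference (x axis) of each of the 8 genes (y axis) in 4 comparisons, with its 95% confidence interval from limma as a bar and filled points at an adjusted p under 0.05. Between the genotypes no point is filled, in KO tumours Ifng, Irf1, Socs1 and Ifngr1 are filled between the days, and in WT tumours Irf1 is.

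Between the genotypes at day 6, 0 of the 8 genes were called, where 0.0154% of the 12976 tested genes were. At an unadjusted p under 0.05, limma gave 4 of the 8, Ifngr1, Jak2, Irf1 and Socs1, against 6.35% of the tested genes, and the methods' t-test gave 2, Ifngr1 and Ifngr2. These adjusted p-values do not show that the genotypes were alike. At this day, signals of 6 of the 8 genes did not overlap between the genotypes, as did 37% of the tested genes. At day 4 also 0 of the 8 were called against 0.0154%, with 0 at an unadjusted p under 0.05 from limma and 1 by the methods' t-test, and 3 did not overlap, against 36.4%. Limma gave 7.11% of the tested genes an unadjusted p under 0.05 at day 4. With time, 1 of the 8 was called in WT tumours, where 5.83% of the tested genes were, 4.16% higher and 1.66% lower at day 6. In KO tumours 3 rose and 1 fell, where 6.23% of the tested genes were called, 3.71% higher and 2.52% lower. At an unadjusted p under 0.05 limma gave 4 of the 8 in WT tumours and 5 in KO tumours, against 25.6% and 26.1% of the tested genes. The days did not overlap for 6 of the 8 genes in WT and for 8 in KO tumours, as for 53.6% and 61.4% of the tested genes. The comparisons of days share their tumours with those of genotypes and are not independent of them.

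Whether the genotypes changed differently with time was tested as the difference between the KO effects at day 6 and day 4. It was 1.37 for Socs1 (standard error 0.37), 1.25 for Ifng, 0.78 for Irf1, 0.44 for Jak2 and -0.52 for Ifngr1 on the log2 scale. When KO replicate 1 of day 6 was left out it was 0.70 for Ifng, 0.34 for Irf1 and 0.27 for Jak2, and when WT replicate 1 of day 4 was left out it was -0.34 for Ifngr1. Omission of KO replicate 2 of day 6 gave 1.23 for Irf1, and that of KO replicate 2 of day 4 gave 0.80 for Ifng. None of the 8 passed (adjusted p = 0.985 to 0.999 from limma), 0% of the tested genes did, and limma gave 3 of the 8, Socs1, Ifngr1 and Irf1, an unadjusted p under 0.05 where 4.38% of the tested genes had one. The rises seen in KO tumours are thus not shown to differ from those in WT tumours.

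Genes that respond to IFN-γ were read from a list of 32, of which 28 had a probe set and 26 were tested. In KO tumours 20 of the 26 rose from day 4 to day 6 and 0 fell, where 3.71% of the tested genes were called higher. Those that rose had log2 differences of 0.85 to 4.56, and the median over the 26 was 2.09, against 0.00 over all tested genes. Cxcl9, a chemokine that attracts T cells, had 4.56 (adjusted p = 0.0211 from limma), and Gbp2, Iigp1 and Gbp6, which encode interferon-inducible GTPases, had 4.19, 3.99 and 3.87 (adjusted p = 0.00496, 0.00538 and 0.0176). The signal of Gbp2 was 902.4 and 628.1 in KO tumours of day 4 and 20582.9 and 9501.7 in those of day 6. The same 4 genes were those called in WT tumours, with 3.51, 2.36, 2.17 and 2.65 (adjusted p = 0.0305, 0.0210, 0.0235 and 0.0344 from limma). There the median of the 26 was 0.90, and 4.16% of the tested genes were called higher. At an unadjusted p under 0.05 limma gave 23 of the 26 in KO and 19 in WT tumours, against 26.1% and 25.6% of the tested genes. Positive differences numbered 24 and 25. For the difference between the KO effects 0 of the 26 passed. Limma gave 9 of them an unadjusted p under 0.05, where 4.38% of the tested genes had one. Not all of the list rose: H2-Aa, a chain of MHC class II, had -0.07 in KO and 0.18 in WT tumours, and B2m, the light chain of MHC class I, had -0.35 and -0.37. Between the genotypes 0 of the 26 passed at day 6, with a median of 0.50 and 21 positive where 48.3% of the tested genes were, and 0 at day 4, with a median of -0.35 and 3 positive where 51.7% were (limma gave 7 and 5 of them an unadjusted p under 0.05, and the methods' t-test 0 and 2). The count of 20 did not hold without KO day 6 replicate 1 or without either KO tumour of day 4. The count of 4 in WT tumours did not hold without replicate 1 of either WT group or without either KO tumour of day 4.

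The signal transducers beside the members did not pass in any comparison. Of 5 tested, 0 were called in KO tumours with time, with 1 at an unadjusted p under 0.05 from limma and 0 by the methods' t-test. Stat2 had a log2 difference of 0.80 and Stat3 of 0.48 there (adjusted p = 0.178 and 0.212 from limma), and -0.09 and -0.11 in WT tumours. Of 6 other interferon regulatory factors 0 passed in any comparison. Irf7, the main inducer of type I interferon, had 0.23 in KO and -0.51 in WT tumours, and Irf2, an antagonist of IRF1, had 0.38 and 0.18. Limma gave 1 of these 6 an unadjusted p under 0.05 with time in each genotype, and the methods' t-test 1 in KO and 0 in WT tumours. Over all tested genes limma gave 25.6% in WT and 26.1% in KO tumours.

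Among 12 inhibitors of cytokine signalling other than Socs1, 2 rose with time in KO tumours and 10 did not pass. Of all tested genes 3.71% were called higher there. Socs2, which restrains growth hormone signalling, had 1.31 and Ptpn1, a tyrosine phosphatase of JAK2, had 0.83 (adjusted p = 0.0350 and 0.0235 from limma). Socs3, an inhibitor of IL-6 signalling, had 1.04 and Cish, a target of STAT5, had 1.0 (adjusted p = 0.0781 and 0.0638), and in WT tumours Socs3 had -0.16 and Cish -0.06. In WT tumours and between the genotypes 0 of the 12 passed, with 2 at an unadjusted p under 0.05 from limma in WT tumours, 2 at day 6 and 0 at day 4, and 0, 1 and 1 by the methods' t-test. Over all tested genes limma gave 25.6%, 6.35% and 7.11% such a p-value.

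The genes that lead to IFN-γ production did not pass with time either. Of 10 tested cytokines, receptors and transcription factors of this kind, 0 were called in any comparison, with 1 in each genotype at an unadjusted p under 0.05 from limma with time, 4 between the genotypes at day 6 and 2 at day 4 (1 in WT and 0 in KO tumours with time, and 1 at each day, by the methods' t-test). Over all tested genes limma gave 25.6% in WT and 26.1% in KO tumours, 6.35% at day 6 and 7.11% at day 4. Between KO and WT tumours the median of the 10 was -0.20 at day 6, with 7 negative, and -0.28 at day 4, with 8 negative. The 4 at day 6, named after their values were seen, were Il12b at -0.84, Stat4 at -0.86 and Eomes at -0.86, all lower in both KO tumours, and Il18rap at 0.46. The Il12b signals of 79.5 and 79.7 in KO tumours lay close to the filter level of 78.6, against 154.1 and 157.1 in WT tumours. Il18rap, a chain of the IL-18 receptor, had 0.62 in WT and 0.16 in KO tumours, and Runx3, a transcription factor of cytotoxic lymphocytes, had 0.29 and 0.56 (adjusted p = 0.0794, 0.614, 0.362 and 0.0989 from limma). Il12a, Il12rb2, Il2 and Il21 lay below the filter.

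Among markers of the cells that make IFN-γ, Gzmb rose with time in both genotypes and Gzma in KO tumours. Gzmb, a granzyme of NK cells and T cells, had signals of 247 and 293.8 in WT and 143.8 and 90 in KO tumours at day 4, and of 1753.9 and 1274.6 in WT and 1739.6 and 1290.2 in KO tumours at day 6. It rose by 2.40 in WT and 3.54 in KO tumours (adjusted p = 0.0132 and 0.00206 from limma) and was level between the genotypes at day 6, with a log2 difference of 0.00. Gzma, another granzyme, rose by 1.94 in KO tumours (adjusted p = 0.0349 from limma) and had 0.69 in WT tumours. Of 12 tested NK and T cell markers, 1 was called in WT and 2 in KO tumours, and the median over the list was 0.54 and 0.47. The shares of all tested genes called higher were 4.16% and 3.71%. The T cell receptor chain gene Cd3d had 0.98 in WT and 1.20 in KO tumours, and the NK cell receptor gene Klrd1 had 0.44 and -0.74 (adjusted p = 0.200, 0.125, 0.354 and 0.136 from limma). The summed signal of the 16 markers with a probe set was 6058 to 8583 at day 4 and 9015.4 to 12192 at day 6, and the defining markers Ncr1, Cd3e, Cd8b1 and Cd4 lay below the filter. The part of these cells in the change of Ifng was not tested. Between the genotypes 0 of the 12 passed at either day, where 0.0154% of the tested genes were called at each. At day 6, 9 were negative, with a median of -0.26, where 48.3% of the tested genes were positive. At day 4, 9 were negative, with a median of -0.20, where 51.7% were positive. Limma gave 1 of the 12 an unadjusted p under 0.05 at day 6 and 2 at day 4, against 6.35% and 7.11% of the tested genes. The methods' t-test gave 2 and 1.

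Of 8 tested markers of dendritic cells, macrophages and B cells, 0 passed in any comparison, with 2 in each genotype at an unadjusted p under 0.05 from limma with time, 2 between the genotypes at day 6 and 3 at day 4 (0 in WT and 1 in KO tumours, 3 and 1 by the methods' t-test). Over all tested genes limma gave 25.6% in WT and 26.1% in KO tumours, 6.35% at day 6 and 7.11% at day 4. Between KO and WT tumours the median of the 8 was -0.31 at day 6, with 6 negative, and -0.49 at day 4, with 7 negative. The macrophage genes Adgre1, Cd68 and Csf1r, named after their values were seen, were lower in both KO than in both WT tumours at each day, with -0.61, -0.56 and -0.30 at day 6 and -0.88, -0.49 and -0.49 at day 4 (adjusted p = 0.713, 0.760, 0.824, 0.342, 0.647 and 0.557 from limma). Another macrophage gene, Mrc1, went the other way at day 6, with signals of 23812.1 and 24929.1 in KO against 21757.4 and 21799.2 in WT tumours. The part of macrophage genes in the differences of the members between the genotypes, such as that of Ifngr1, was not tested. Itgax, an integrin of dendritic cells and macrophages, had 1.23 in WT and 0.66 in KO tumours, and Mrc1, the mannose receptor of macrophages, had 0.10 and 0.58 (adjusted p = 0.0531, 0.213, 0.737 and 0.0648 from limma). Among 6 carcinoma markers Cdh1, the epithelial cadherin, rose by 2.65 in WT and 2.50 in KO tumours (adjusted p = 0.00887 and 0.00733 from limma). Krt8 rose by 0.55 in KO tumours (adjusted p = 0.0408 from limma). Of all tested genes 4.16% were called higher in WT and 3.71% in KO tumours. The markers did not move together, with 3 of the 6 negative in WT and 1 in KO tumours. Mean signals of Epcam were 413.4 at day 4 and 204.55 at day 6 in WT, and 348.75 and 196.05 in KO tumours. The part of these shifts in the members' changes was not tested. Of the 4 skin and 8 muscle genes tested 0 were called in any comparison, with 0 at an unadjusted p under 0.05 from limma save 1 skin gene in WT tumours with time, where the methods' t-test gave 2.

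**Figure D3:**
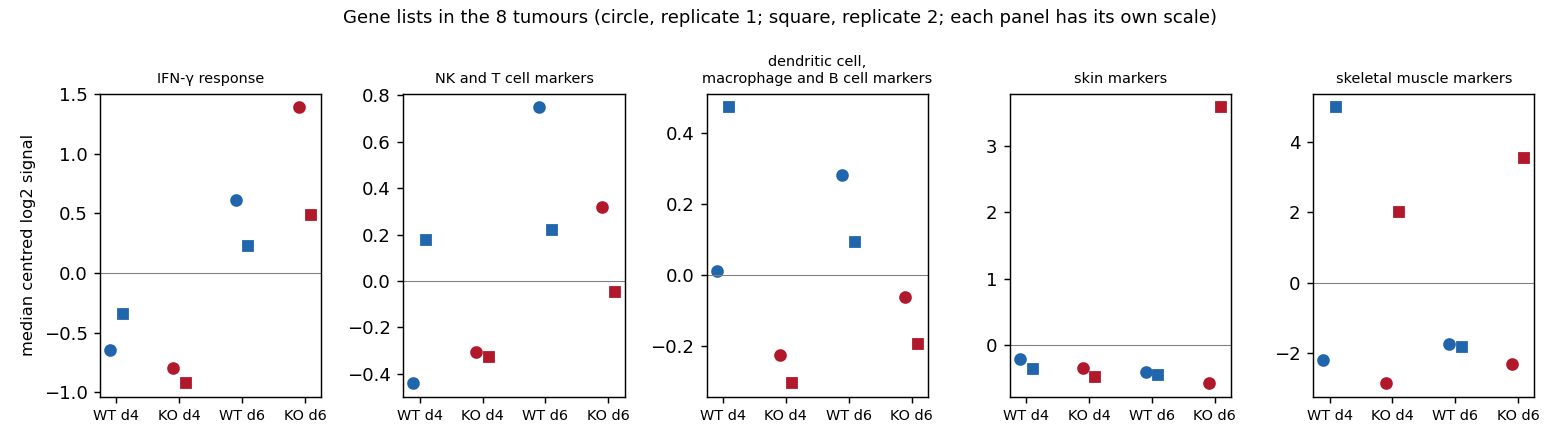
Median over the genes of a list of the log2 signal minus the gene's mean over the 8 tumours (y axis), for 5 lists in the 4 groups (x axis, circle for replicate 1, square for replicate 2, each panel with its own scale). The IFN-γ response list ran from -0.92 to -0.34 at day 4 and from 0.23 to 1.39 at day 6, and the muscle list was high in 3 tumours and the skin list in 1.

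The patterns of Ifng, Irf1, Socs1 and Irf8 over the 8 tumours were set beside those of all tested genes. Likeness was the root mean square difference of log2 signals after each gene was centred on its mean, so that 0 is the same pattern, and the tumours share their groups. The genes nearest to Ifng were Ifi47 at 0.31, Igtp at 0.32, Ccl12 at 0.35 and Irgm2 at 0.40, where Ifng itself had a standard deviation of 1.40 over the tumours. Ifi47, Igtp and Irgm2 encode interferon-inducible GTPases and Ccl12 a chemokine of monocytes. The genes nearest to Irf1 were Socs1 at 0.21, Tgm2 at 0.21, Tap1, which carries peptides to MHC class I, at 0.22, and the GTPase gene Irgm1 at 0.23. Socs1 had Batf2 at 0.19, Irf1 at 0.21, Rnf19b at 0.28 and Pdcd1lg2, a ligand of PD-1, at 0.28. The nearest genes of Irf8 were others, Acap3 at 0.20, Gimap3 at 0.20, the macrophage lectin gene Mgl2 at 0.22 and Lcp2, an adaptor of leukocytes, at 0.23, and its own standard deviation was 0.66.

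**Figure D4:**
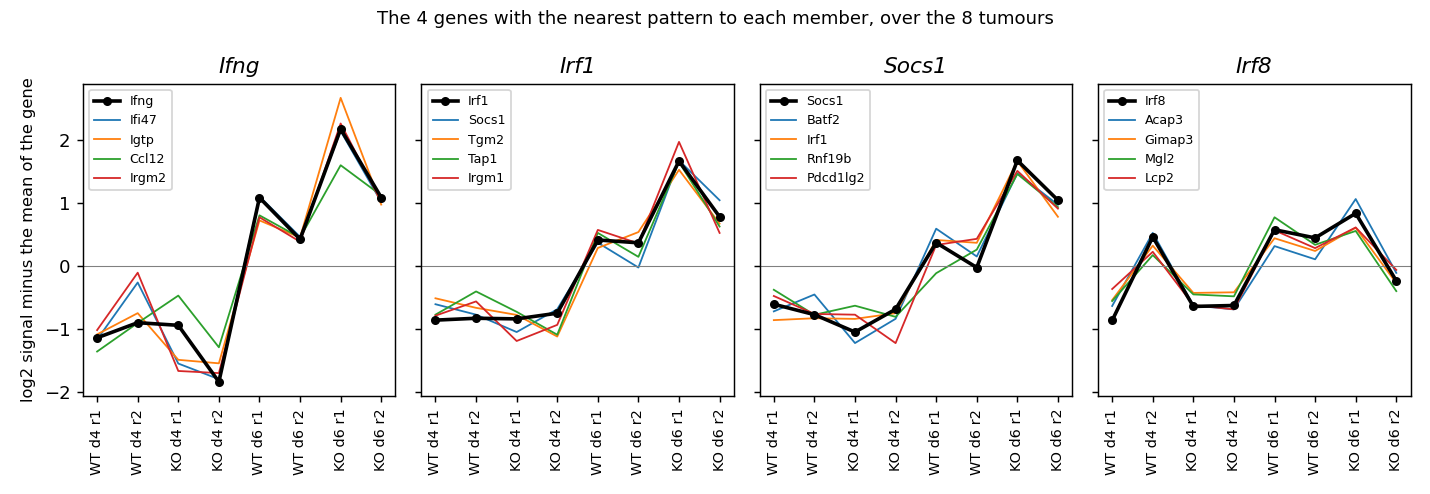
Log2 signal minus the gene's mean (y axis) of Ifng, Irf1, Socs1 and Irf8 (black) and of the 4 genes nearest to each (colours) in the 8 tumours (x axis, r1 and r2 for the replicates). Lines join tumours only to guide the eye. Ifng, Irf1, Socs1 and Irf8 were all highest in KO day 6 replicate 1, and among the tumours of day 4 Irf8 stood out in WT replicate 2.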

How the data were processed

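RNA of whole MOPC tumours was measured on Affymetrix mouse arrays, 1 array per tumour. For each probe set the authors deposited a signal intensity on the linear scale, made with MAS5 (version not given in the sources used here) and scaled to a 2% trimmed mean of 1000 on every array. Median signals were 133.2 to 175.2, so the values are relative to each array's total. Spearman correlations between the 2 arrays of a group were 0.941 to 0.953. The RNA input is 200 ng by the labels but 250 ng by the published methods, and detection calls were not used here.

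Groups and replicates came from the sample labels. The platform annotation gave 1 symbol to 34958 probe sets, several to 932 and none to 9211. Of the first, 34754 matched a RefSeq table of GRCm38.p6 by Entrez identifier, which changed 0 symbols. Each of 18194 genes was read from its brightest probe set by mean log2 signal.

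Values of log2(signal + 16) entered limma 3.58.1 (R 4.3.3) as 4 groups with 4 residual degrees of freedom, no replicate block, a trend on the mean and Benjamini-Hochberg adjustment in 5 comparisons. Fold changes on this scale understate those of low signals. The fit was tested on simulated data. Alternatives were quantile normalization, pseudocounts of 1 and 64, no filter and a 60th percentile filter, the mean of all probe sets, the compared groups alone, no trend, a replicate block, the methods' t-test, and omission of every array in turn. Omission of the 3 arrays of high muscle signal was added after seeing the data, as were the counts for the response list.

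The 8 genes and the gene lists were chosen with earlier results of these data known. The genes named are the 8 members, the list genes called (at most the 4 of largest change in each direction) with at most 2 others per list, the 4 genes nearest in pattern to Ifng, Irf1, Irf8 and Socs1, and markers of the arrays that stood apart. The Toll-like receptor genes were named to show the deleted genes. Promoter sequences are from RefSeq, and all 8 members matched.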

Additional observations from a re-analysis of the deposited data

How the results depend on the processing

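Of the 5 calls of members, Irf1 and Socs1 in KO tumours passed in 17 of 20 alternatives, Ifng in 12 and Ifngr1 in 8, and Irf1 in WT tumours in 11. No called difference turned its sign. Differences that turned their sign had not passed. Without the 3 arrays of high muscle signal these were Jak1 (0.063) and Irf8 (0.33) between the genotypes at day 6, Ifng (0.20), Ifngr1 (0.017) and Irf8 (0.22) at day 4, and Ifngr1 with time in WT tumours (0.10). With single arrays left out, Jak1 ran from -0.26 to 0.063 and Irf8 from -0.75 to 0.33 at day 6. At day 4 Ifng ran from -0.82 to 0.078, Ifngr1 from -0.29 to 0.073, Irf8 from -1.10 to 0.23 and Socs1 from -0.36 to 0.0028. Ifngr1 with time in WT tumours ran from -0.26 to 0.10, and the difference between the KO effects of Irf8 from -0.44 to 0.89. With the mean of all probe sets Ifngr2 had 0.023 at day 4, -0.030 in WT and -0.32 in KO tumours with time, and Jak2 -0.057 in WT tumours.

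Members called at day 6 and day 4 between the genotypes were 2 and 1 by the methods' t-test before adjustment, and 0 in all other alternatives. With time in WT tumours the count of 1 was 0 in the compared groups alone, 0 without the trend, 0 by the t-test after and 3 before Benjamini-Hochberg adjustment, 2 without the 3 muscle arrays, where Irf8 was added, and 0 to 1 when single arrays were left out. In KO tumours the count of 4 was 2 without the trend, 0 by the t-test after adjustment, 2 without the 3 arrays, and from 0 without KO day 4 replicate 1 or 2 to 5 without WT day 4 replicate 1 or 2. The difference between the KO effects gave 0 members in every alternative run; the t-test and the fit to the compared groups alone were not run for it. Of the 26 response genes, 20 were called with time in KO and 4 in WT tumours, against 3 and 0 without the trend, 21 and 0 in the compared groups alone, and 0 in both by the adjusted t-test.

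Genes called at day 6 between the genotypes were 2, and 0 with a pseudocount of 1, the 60th percentile filter, the compared groups alone, no trend, no muscle arrays or the adjusted t-test, 760 by the unadjusted t-test and 0 to 26 when single arrays were left out, with 26 without KO day 6 replicate 1. At day 4 there were 2, and 1 with the 60th percentile filter, the compared groups alone or no trend, 815 and 0 by the t-test before and after adjustment, and 0 to 11. With time in WT tumours there were 756, and 473 with the mean of probe sets, 11 in the compared groups alone, 9 without the trend, 1399 and 0 by the t-test, 172 without the muscle arrays, and from 4 without WT day 6 replicate 1 to 890. In KO tumours there were 809, and 523 without a filter, 398 with the mean of probe sets, 1747 in the compared groups alone, 74 without the trend, 2627 and 1 by the t-test, 94 without the muscle arrays, and from 3 without KO day 4 replicate 1 to 1368. For the difference between the KO effects there were 0, and 4 without the muscle arrays and 0 to 9 when single arrays were left out. With single arrays or the 3 muscle arrays left out, the lone sample of a group is assumed to vary like the other groups. Without the 3 muscle arrays only WT day 6 kept both tumours, so the residual spread came from that pair. Calls in that setting are therefore no measure of robustness. The cause of the shifts in these counts was not tested.

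Replicate numbers share no stated source. The deviations of same-numbered arrays correlated at -0.12 to 0.27 between groups, so the numbers were not taken to pair the samples. With the replicate block, genes called were 0 at day 6 and 2 at day 4 between the genotypes, 463 in WT and 325 in KO tumours with time, and members called were 0, 0, 1 and 3, with Ifngr1 lost (adjusted p = 0.0720 from limma).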
